A study of Mus musculus with 8 samples.

Results

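Cadherins and protocadherins are transmembrane proteins that hold neighbouring cells together through repeated, calcium-binding extracellular domains. The genes described here are those whose symbol is Cdh followed by a number or begins with Pcdh, with Cdh5 (VE-cadherin, the main cadherin of endothelial junctions) left aside. Of 92 such mouse genes, 68 had a named probe on the array, and 38 of these gave a signal well above background on all 3 arrays of at least 1 group and were tested, among 14518 genes tested in all. The rule that picks them uses gene names alone.

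RNA came from differentiating mouse C57BL/6 embryonic stem cells that carry iRUNX1, a Tet-on construct in which doxycycline switches on the transcription factor Runx1. Embryoid bodies grown for 3.25 days were sorted for the receptor Flk-1, cultured, sorted for Flk-1 again and then cultured for 2 days as hemogenic endothelium, endothelium that gives rise to blood cells. The induced group (labelled DOX+, n = 3) was given 0.3 µl/ml of doxycycline overnight (a volume per volume, as the labels have it), and the uninduced group (labelled DOX-, n = 3) did not. Both groups carry the construct, so they differ in doxycycline itself as well as in the construct's induction, and cells given doxycycline without the construct were not analysed here. The labels call the 3 replicates independent and biological, and add 1 technical repeat array per group whose replicate of origin they do not give. Each array reads RNA from a whole culture, so fewer cells of a type and less RNA per cell cannot be told apart.

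Signals are given as log2 of the processed signal minus the 75th percentile of the same array, so 0 is that percentile and a difference of 1 is 2-fold. The 75th percentile was 973, 595 and 543 signal units on induced arrays 1 to 3, against 699, 378 and 338 on uninduced arrays 1 to 3, and no spot was saturated. Runx1 was measured by 2 probes, and the brighter gave -6.14, -5.71 and -4.95 on induced arrays, against -4.71, -4.72 and -4.28 on uninduced arrays. The other was well above background on no array. The sources used here do not say whether the construct's Runx1 sequence includes the target of either probe, so they do not check the labels. Of the marker lists, all 20 blood genes were kept, 9 rose and 1 fell (12 and 1 with replicate number as a block). Of these 20, 3 passed the filter through the induced group only and had to be higher there, and they gave 2 of the 9 rises. The blood genes had a summed linear level (relative to the 75th percentile) of 77.1 to 83.6 on induced arrays and 14.2 to 18.9 on uninduced arrays. Itgb3 (means of 5.28 induced and 1.37 uninduced) was the largest part of the induced sum. Differences were below 0 for 4 blood genes: Csf1r (-1.33), which fell, and Ptprc (-0.19), Cd48 (-0.12) and Gata1 (-0.50), which passed in neither fit. All 20 endothelial genes were kept, 0 rose and 4 fell (Ecscr, Eng, Sox17 and Tek; 1 and 12 with the block), and their summed level was 121 to 328 on induced arrays and 263 to 649 on uninduced arrays. The labelled cell type thus had its endothelial markers in both groups.

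Type I classical cadherins such as E-cadherin and N-cadherin bind the same cadherin on the next cell and are tied to actin by catenins, and type II cadherins are built alike with a different binding surface. Protocadherins have more extracellular repeats and lack the catenin-binding tail. The clustered protocadherins lie in 3 neighbouring gene arrays: alpha and gamma transcripts join 1 variable exon to exons shared by their whole cluster, while each beta gene stands alone without shared exons. In endothelium VE-cadherin and N-cadherin are the best known members, and Pcdh12, also called VE-cadherin-2, is a protocadherin of endothelial cells.

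The promoters shown are those of 4 of the 6 non-clustered protocadherins that passed the test as lower in induced cultures once replicate number was fitted as a block (values below). Each is the 250 bases before the annotated start from RefSeq, build GRCm38.p6, written 5′ to 3′ on the gene's strand, at chr5:57717831-57718080 (+) for Pcdh7, chr14:84443313-84443562 (+) for Pcdh17, chr3:49757317-49757566 (-) for Pcdh18 and chr14:88471397-88471646 (-) for Pcdh20. Capitals mark the CCAAT box, written CCAAT or, on the opposite strand, ATTGG, a common promoter element chosen for display after the sequences had been read.
Pcdh7: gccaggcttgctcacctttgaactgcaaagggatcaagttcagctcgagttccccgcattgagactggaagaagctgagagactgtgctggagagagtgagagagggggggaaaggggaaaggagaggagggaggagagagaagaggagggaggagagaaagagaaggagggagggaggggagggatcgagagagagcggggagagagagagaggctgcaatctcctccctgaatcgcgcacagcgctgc
Pcdh17: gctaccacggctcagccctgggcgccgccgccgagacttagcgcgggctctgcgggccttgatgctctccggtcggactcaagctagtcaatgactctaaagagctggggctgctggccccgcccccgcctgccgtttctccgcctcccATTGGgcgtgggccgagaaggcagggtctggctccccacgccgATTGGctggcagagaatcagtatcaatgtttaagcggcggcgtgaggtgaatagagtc
Pcdh18: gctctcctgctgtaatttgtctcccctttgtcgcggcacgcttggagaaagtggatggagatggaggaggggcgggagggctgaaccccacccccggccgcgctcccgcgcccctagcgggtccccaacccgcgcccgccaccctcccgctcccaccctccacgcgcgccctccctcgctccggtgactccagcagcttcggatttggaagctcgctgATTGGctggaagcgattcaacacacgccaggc
Pcdh20: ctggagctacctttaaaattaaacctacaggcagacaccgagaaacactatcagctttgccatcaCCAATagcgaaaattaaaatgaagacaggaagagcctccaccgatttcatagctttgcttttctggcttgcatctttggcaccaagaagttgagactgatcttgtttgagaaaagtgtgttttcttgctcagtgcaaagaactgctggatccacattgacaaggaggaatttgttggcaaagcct
The core letters bound by RUNX proteins, TGTGGT or TGCGGT on either strand, were in none of these 4 windows, and 18.6% of all 32851 promoters in the table hold 1 of them in a window of this length. CCAAT on either strand was in 3 of the 4 (2 copies in Pcdh17, 1 each in Pcdh18 and Pcdh20) and is in 33.8% of all promoters, and the motifs searched do not overlap one another in these windows. The count of CG dinucleotides was 7 for Pcdh7, 21 for Pcdh17, 23 for Pcdh18 and 3 for Pcdh20, against a median of 6 over all promoters. The 4 sequences therefore share no single make-up: 83.7% of all promoters had fewer CG than that of Pcdh17, 86.7% fewer than Pcdh18, 53.7% fewer than Pcdh7 and 29% fewer than Pcdh20. A match is a description of letters only, and no match says only that these letters are not in this window. Of the tested members, 13 have a promoter in the table.

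Across the tested members, 1 rose (Cdh1) and 3 fell (Pcdhb6, Pcdhb14 and Pcdhb22) at an adjusted p under 0.05 in limma, where 4.14% of all genes tested rose and 2.16% fell. As a share, 2.63% of members rose and 7.89% fell. Log2 changes, given as induced minus uninduced throughout, were below 0 for 31 of 38 members, against 41% of all genes, with a median of -0.38 among members and 0.09 over all genes. The same-numbered arrays of both groups deviated together, and a fit with replicate number as a block called 3 members higher (Cdh1, Cdh4 and Cdh13) and 15 lower, where 9.37% of all genes rose and 6.8% fell. In that fit 7.89% of members rose and 39.5% fell. The 15 comprised 6 non-clustered protocadherins, 8 beta protocadherins and the gamma protocadherin Pcdhga10. Of the 38, 4 (Pcdh20, Pcdhb7, Pcdhb14 and Pcdhb16) passed the filter through the uninduced group only and could hardly have come out higher, and these gave 1 of the 3 falls without the block and 3 of the 15 with it. Scaling the arrays to spike-in RNA instead of the 75th percentile turned the sign of the members' median, to 0.91, as described at the end.

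**Figure D1:**
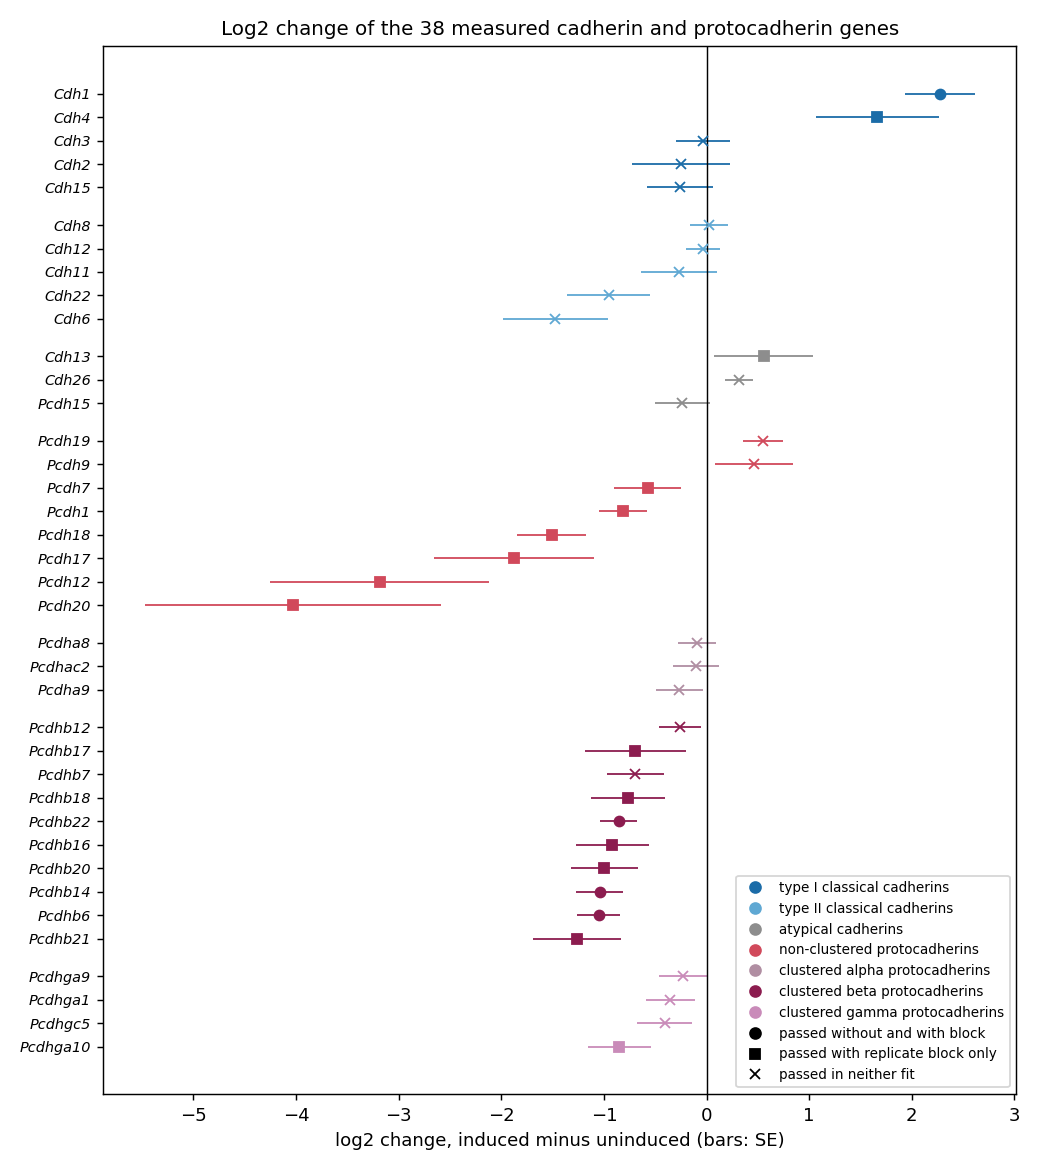
Log2 change (induced minus uninduced, horizontal axis, bars are SE, n = 3 per group) of the 38 measured genes, grouped by family, with circles for genes that passed without and with the replicate block, squares for those that passed with it only and crosses for the rest. All 10 beta protocadherins lie left of 0 with this scaling (all 10 lie right of 0 with spike-in scaling), Cdh1 at 2.27 and Cdh4 at 1.66 lie farthest right, and Pcdh20 at -4.03 and Pcdh12 at -3.19 lie farthest left.

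All 5 type I classical cadherins on the array were measured, and they did not move together. Cdh1, or E-cadherin, the adhesion protein of epithelia, had -1.15, -1.91 and -1.14 on the induced arrays, against -3.28, -3.43 and -4.31 on the uninduced arrays. The groups did not overlap, every induced array lay more than 1 log2 unit above every uninduced one, and the technical repeats gave -0.35 induced and -3.83 uninduced. Cdh1 rose by 2.27 (SE 0.34, adjusted p = 0.0138 in limma, 0.0124 with the block). The rise was 1.15 with a normexp background correction and 3.57 with spike-in scaling, passing in both. Without induced replicate 3 it was 2.14 and missed the threshold (adjusted p = 0.0513 in limma).

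Cdh4, or R-cadherin, first known from retina, had -3.15, -1.31 and -1.5 on the induced arrays, against -4.46, -2.80 and -3.68 on the uninduced arrays. Each induced array lay above its same-numbered uninduced array, by 1.32, 1.49 and 2.19, but induced replicate 1 was below uninduced replicate 2, so the groups overlapped. The log2 change of 1.66 (SE 0.60) had an adjusted p of 0.177 in limma and of 0.00798 with the block, where Cdh4 rose. A second kept probe gave 1.44, and the remaining probe was well above background on no array. The technical repeats gave -1.63 induced and -3.36 uninduced.

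**Figure D2:**
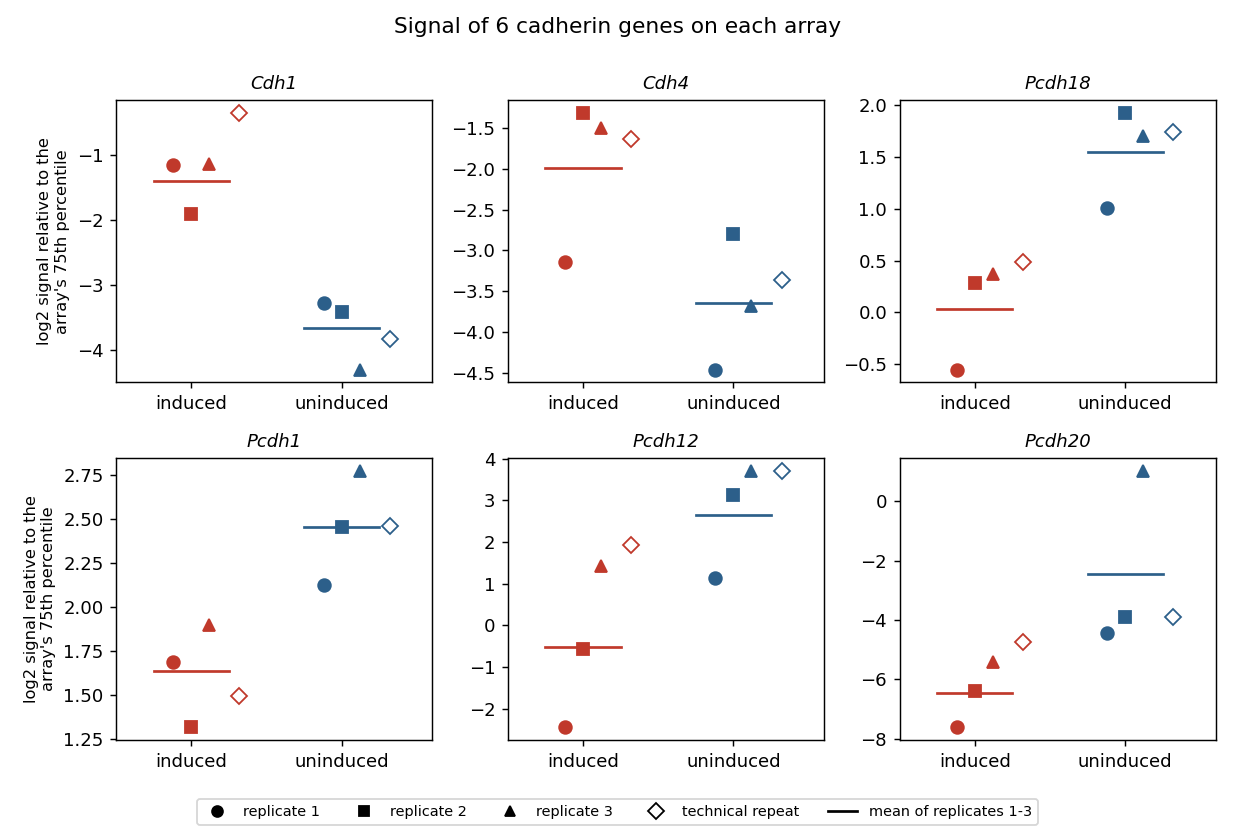
Log2 signal relative to the array's 75th percentile (vertical axis, a separate scale for each gene) of 6 members in induced and uninduced cultures, with filled points for replicates 1 to 3, open diamonds for the technical repeats and bars for the means of replicates 1 to 3. Cdh1 is at -1.14, -1.15 and -1.91 in the induced cultures with all uninduced values lower, and the Pcdh20 value of 1.02 in uninduced replicate 3 stands far above the other uninduced arrays.

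Cdh2, or N-cadherin, which endothelial and mesenchymal cells use, had 5.54, 4.03 and 4.68 on the induced arrays, against 5.82, 4.59 and 4.60 on the uninduced arrays. The ranges overlapped and the difference was -0.25 (SE 0.48, adjusted p = 0.780 in limma), with -0.22 from a second probe. Cdh3, or P-cadherin, had 2.81, 2.25 and 3.1 on the induced arrays, against 2.55, 2.66 and 3.05 on the uninduced arrays. Its difference of -0.04 (SE 0.26, adjusted p = 0.946 in limma) was small beside the spread within either group. Cdh15, or M-cadherin, which muscle precursors use, had -3.96, -3.27 and -3.40 on the induced arrays, against -3.91, -2.98 and -2.95 on the uninduced arrays, with a difference of -0.26 (SE 0.32, adjusted p = 0.656 in limma). For comparison, VE-cadherin (Cdh5) averaged 4.85 ± 0.76 in induced and 5.13 ± 0.72 in uninduced cultures (SD, n = 3 each), a difference of -0.28 (SE 0.48, adjusted p = 0.751 in limma). With spike-in scaling the differences of Cdh2, Cdh3 and Cdh15 were above 0, at 1.04, 1.26 and 1.03.

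Several lists bear on Cdh1. Of 22 epithelial and endoderm markers 11 were kept, and of these 1 rose, Foxa2, a transcription factor of endoderm (2.58, SE 0.28, adjusted p = 0.00498 in limma), while 0 fell (with the block Krt19 fell, adjusted p = 0.0172). The other kept ones included the keratins Krt8 (-0.61), Krt18 (0.09) and Krt19 (-0.83) and the claudins Cldn4 (-0.50) and Cldn7 (-0.46), none of which passed without the block. Gata4 (0.14) and Gata6 (-0.30), also transcription factors of that list, passed in neither fit. Epcam, which many epithelia make at their junctions, was well above background on 1 of 6 arrays, Afp on 4 of 6, and Hnf4a and Ttr on none. The list's summed linear level was 251 to 335 on induced arrays and 208 to 403 on uninduced arrays, so those ranges overlapped. Krt18, the brightest of the kept ones (means of 7.95 induced and 7.86 uninduced), made up most of that sum, so the overlap says little about the rest of the list. Among 16 mast cell markers 11 were kept, and 6 of these rose like Cdh1 while 0 fell (7 and 0 with the block). However, 5 of the 6 passed the filter through the induced group only and had to be higher there. Kit (0.57), Mitf (0.11), Hdc (-0.36) and Tpsb2 (-0.42) passed in neither fit. The summed level was 27.7 to 39.4 on induced arrays and 4.66 to 6.63 on uninduced arrays. Gzmb, kept through the induced group only (means of 4.11 induced and -5.94 uninduced), was the largest part of the induced sum. Fcer1a, Ms4a2 and Cma1 were well above background on no array, and Cpa3 on 1. The part of blood, mast or endoderm cells in the Cdh1 result was not tested.

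All 9 listed repressors of the E-cadherin gene were measured. Snai3 rose, by 1.86 (SE 0.27, adjusted p = 0.0120 in limma), but on uninduced arrays it was never well above background, and with normexp its difference was -0.03 (adjusted p = 0.951 in limma). The zinc-finger repressors Snai1 (0.51) and Snai2 (0.79), and Zeb1 (-0.44) and Zeb2 (0.12), did not pass, although Snai1 rose with the block (adjusted p = 0.0426 in limma). The catenins that link classical cadherins to actin did not pass: Ctnna1 (alpha-catenin) differed by -0.01 (SE 0.19), Ctnnb1 (beta-catenin) by -0.08 (SE 0.18) and Ctnnd1 (p120, which holds cadherins at the membrane) by 0.14 (SE 0.13). Of 20 kept catenins and cadherin partners of 23 listed, 0 rose and 1 fell, with a median of -0.11. The 1 that fell was Afdn, or afadin, which links nectins to actin (-1.67, SE 0.32, adjusted p = 0.0310 in limma), and it was -0.37 with spike-in scaling and did not pass there. With the block 5 fell (Afdn, Ctnnd2, Jup, Plekha7 and Ptprm).

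Type II classical cadherins and the atypical members gave no call without the block. Of 12 type II genes on the array 5 were kept, with differences of -1.47 for Cdh6, -0.95 for Cdh22, -0.27 for Cdh11, -0.04 for Cdh12 and 0.02 for Cdh8 (chosen for completeness after their values were seen). Cdh6, or K-cadherin, known from kidney, had -4.27, -2.61 and -4.59 on the induced arrays, against -2.69, -2.27 and -2.09 on the uninduced arrays. All 3 same-numbered pairs were lower when induced, yet induced replicate 2 lay above uninduced replicate 1, and the adjusted p was 0.163 in limma and 0.0713 with the block. For Cdh11, a cadherin of mesenchyme, the 2 kept probes differed in sign (-0.27 and 0.94), so it has no settled direction. Of the 7 type II genes not kept, Cdh7, Cdh18, Cdh19, Cdh20 and Cdh24 were well above background on no array.

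Cdh13, or T-cadherin, is anchored in the membrane by a lipid rather than a transmembrane domain and is found on vascular endothelium, where it binds adiponectin. It had 1.81, 0.36 and 0.73 on the induced arrays, against 1.24, -0.07 and 0.07 on the uninduced arrays. The groups overlapped because both replicate 1 arrays were high, while each pair differed by a like amount (0.57, 0.43 and 0.66). The change of 0.55 (SE 0.48) had an adjusted p of 0.528 in limma and of 0.0391 with the block, where Cdh13 rose. Cdh26 had 0.93, 0.73 and 0.95 on the induced arrays, against 0.55, 0.54 and 0.58 on the uninduced arrays, groups that did not overlap, with a difference of 0.31 (SE 0.14, adjusted p = 0.247 in limma). Induced values lay wholly above uninduced ones for 3 members (Cdh1, Cdh26 and Pcdh19) where this held for 19.6% of all genes, and wholly below them for 7 where this held for 8.71%. Pcdh15, which forms the tip links of hair cells, differed by -0.24, and Cdh16, Cdh17 and Cdh23 were well above background on no array.

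The non-clustered protocadherins held the lowest differences of all members. Of 10 on the array 8 were kept, 0 passed without the block, and with it 6 fell and 0 rose (Pcdh1, Pcdh7, Pcdh12, Pcdh17, Pcdh18 and Pcdh20, the last kept through the uninduced group only), although Pcdh1 and Pcdh7 were above 0 with spike-in scaling. Pcdh12 had -2.45, -0.56 and 1.43 on the induced arrays, against 1.13, 3.13 and 3.71 on the uninduced arrays. Values differed widely between numbers, the induced replicate 3 lay above uninduced replicate 1, and each induced array was below its own uninduced partner, with differences of -3.58, -3.69 and -2.28. The change of -3.19 (SE 1.07) had an adjusted p of 0.150 in limma and of 0.00438 with the block. The technical repeats, at 1.92 induced and 3.71 uninduced, differed less than any of the numbered pairs. With this scaling most endothelial markers moved the same way as Pcdh12, with a median of -1.21. With the block 12 of 20 were lower and 1 higher (Vwf), where 6.8% of all genes fell and 9.37% rose. Without it 4 fell and 0 rose. With spike-in scaling they split in sign, with Flt1 (1.44) and Kdr (0.95) above 0 and Robo4 (-1.69) and Sox17 (-2.25) below. Pcdh12 stayed below 0 there. The part of endothelial cells in the Pcdh12 result was not tested.

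Pcdh18, a delta protocadherin (a group studied mostly in the nervous system), had -0.55, 0.29 and 0.37 on the induced arrays, against 1.01, 1.92 and 1.71 on the uninduced arrays. The groups did not overlap and the technical repeats, at 0.48 induced and 1.74 uninduced, lay within or close to the range of their group. Pcdh18 was lower by a log2 value of -1.51 (SE 0.34), which just missed the threshold without the block (adjusted p = 0.0509 in limma) and passed with it (0.00330). Normexp (0.0470) and median centring (0.0491) each let it pass, whereas spike-in scaling gave -0.22 and no call. Pcdh17, of the same delta group, had -3.18, -1.68 and -0.27 on the induced arrays, against -0.88, 0.55 and 0.82 on the uninduced arrays. These overlapped, with every pair lower when induced, and the change of -1.87 (SE 0.78) had an adjusted p of 0.229 in limma and of 0.0129 with the block.

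Pcdh1, a protocadherin of airway epithelium among other tissues, had 1.69, 1.32 and 1.90 on the induced arrays, against 2.13, 2.46 and 2.77 on the uninduced arrays. All induced values lay below all uninduced values, and the change of -0.82 (SE 0.23) had an adjusted p of 0.104 in limma and of 0.0358 with the block, with a value of 0.48 under spike-in scaling. Pcdh7 had 0.57, -0.35 and -0.02 on the induced arrays, against 1.20, 0.37 and 0.36 on the uninduced arrays. The groups overlapped, and the change of -0.58 (SE 0.32) had an adjusted p of 0.351 in limma and of 0.0440 with the block. The other 2 kept probes of Pcdh7 gave -1.22 and -1.28, the same direction, and spike-in scaling gave 0.72 for the probe used.

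Pcdh20 had -7.61, -6.39 and -5.41 on the induced arrays, none of them well above background, against -4.45, -3.89 and 1.02 on the uninduced arrays. Uninduced replicate 3 stood far above the other uninduced arrays and above the uninduced technical repeat at -3.90. By a rough estimate the signal was 11.1-fold lower in induced cultures, and 3.34-fold lower without uninduced replicate 3. Both estimates set the uninduced mean against, on each induced array, the higher of the probe's own signal and the lowest signal well above background. That lowest signal is no strict limit: on induced replicate 3 it was -5.72, and Pcdh20 at -5.41 lay above it without being well above background. Since the probe was kept through the uninduced group only, the fit below is given beside the estimate and not as a size. The fitted change of -4.03 (SE 1.44) had an adjusted p of 0.175 in limma and of 0.0279 with the block, and without uninduced replicate 3 it was -2.30. With normexp it was -1.83 and did not pass. Pcdh19, mutated in an epilepsy of girls in humans, and Pcdh9 were the 2 non-clustered members with positive differences, 0.55 (SE 0.19, adjusted p = 0.168 in limma) and 0.46 (SE 0.38, adjusted p = 0.509 in limma). Pcdh8 and Pcdh10 were not kept.

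The clustered protocadherins gave 17 kept genes of 35 on the array, all of them below 0 with this scaling (median -0.70), with 0 that rose and 3 that fell. The beta genes carried these calls. Of 22 beta genes on the array 10 were kept, 3 fell without the block and 8 with it, and 9 of the 10 were lower in all 3 same-numbered pairs where this held for 21.7% of all genes. With spike-in scaling 0 of the 10 were below 0. A beta gene could be kept through the uninduced group alone, as Pcdhb7, Pcdhb14 and Pcdhb16 were, so counts over those kept describe them and not the 12 that were not. Of these 12, 8 were well above background on no array and 4 (Pcdhb1, Pcdhb3, Pcdhb4 and Pcdhb15) on 1 to 3 arrays.

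Pcdhb6 had -2.30, -2.69 and -2.24 on the induced arrays, against -1.36, -1.65 and -1.06 on the uninduced arrays. The groups did not overlap, and Pcdhb6 fell by 1.05 (SE 0.21, adjusted p = 0.0368 in limma, 0.00690 with the block). Pcdhb14 had -5.20, -5.33 and -4.64 on the induced arrays, against -4.08, -4.21 and -3.76 on the uninduced arrays. It fell by 1.04 (SE 0.23, adjusted p = 0.0498 in limma, 0.00755 with the block), again without overlap. Pcdhb22 had -0.45, -0.63 and -0.17 on the induced arrays, against 0.33, 0.35 and 0.64 on the uninduced arrays. It fell by 0.85 (SE 0.18, adjusted p = 0.0430 in limma, 0.0119 with the block), with no overlap and the narrowest spread of the 3. These calls were close to the threshold: leaving out any 1 of the 6 arrays ended all 3 of them, except that Pcdhb14 passed without induced replicate 3, and with spike-in scaling their changes were above 0 (0.24, 0.25 and 0.44) and did not pass.

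The remaining beta genes differed by -1.26 for Pcdhb21, -1.0 for Pcdhb20, -0.92 for Pcdhb16, -0.77 for Pcdhb18, -0.70 for Pcdhb7, -0.70 for Pcdhb17 and -0.26 for Pcdhb12 with this scaling. Pcdhb16, Pcdhb17, Pcdhb18, Pcdhb20 and Pcdhb21 passed with the block (adjusted p of 0.0113 to 0.0221 in limma), and Pcdhb7 and Pcdhb12 did not. For Pcdhb18 the pair differences were -0.82, -0.76 and -0.71, an SD of 0.06, beside an SD of 0.56 among induced and 0.51 among uninduced arrays. In all 5 genes replicate 3 lay above replicate 1 within each group, so the groups overlapped while the pair differences kept 1 sign. Beta genes are close in sequence and a probe for 1 may bind transcripts of another, so the 10 are not 10 independent measurements.

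The calls made with the block depended on which pairs were fitted. Leaving out replicate 1, 2 or 3 of both groups gave 7, 5 and 15 members that fell and 2, 2 and 3 that rose, among them 5 not called with all pairs (Cdh11 without replicate 1, Cdh6 without replicate 2, and Cdh22, Pcdh9 and Pcdhb15 without replicate 3). Cdh11 rose there, against -0.27 with all pairs, because that fit used its other kept probe (0.94 with all pairs). Of the 18 calls, those of Cdh4 (adjusted p of 0.00447 to 0.0356 in limma), Pcdh12 (0.000297 to 0.0328), Pcdh18 (0.00265 to 0.0253) and Pcdhb6 (0.0154 to 0.0486) held without any 1 pair. Cdh13 (0.125 to 0.136) and Pcdh7 (0.0568 to 0.205) passed in none of these 3 fits. The other 12 were lost without replicate 1, replicate 2 or both, and Pcdh1 also without replicate 3 (0.0776). Among these, Cdh1 was lost without replicate 1 (0.0665), Pcdh20 without replicate 1 (0.0885) and Pcdh17 without replicate 1 (0.0694) or 2 (0.0586), all of which passed without replicate 3.

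**Figure D3:**
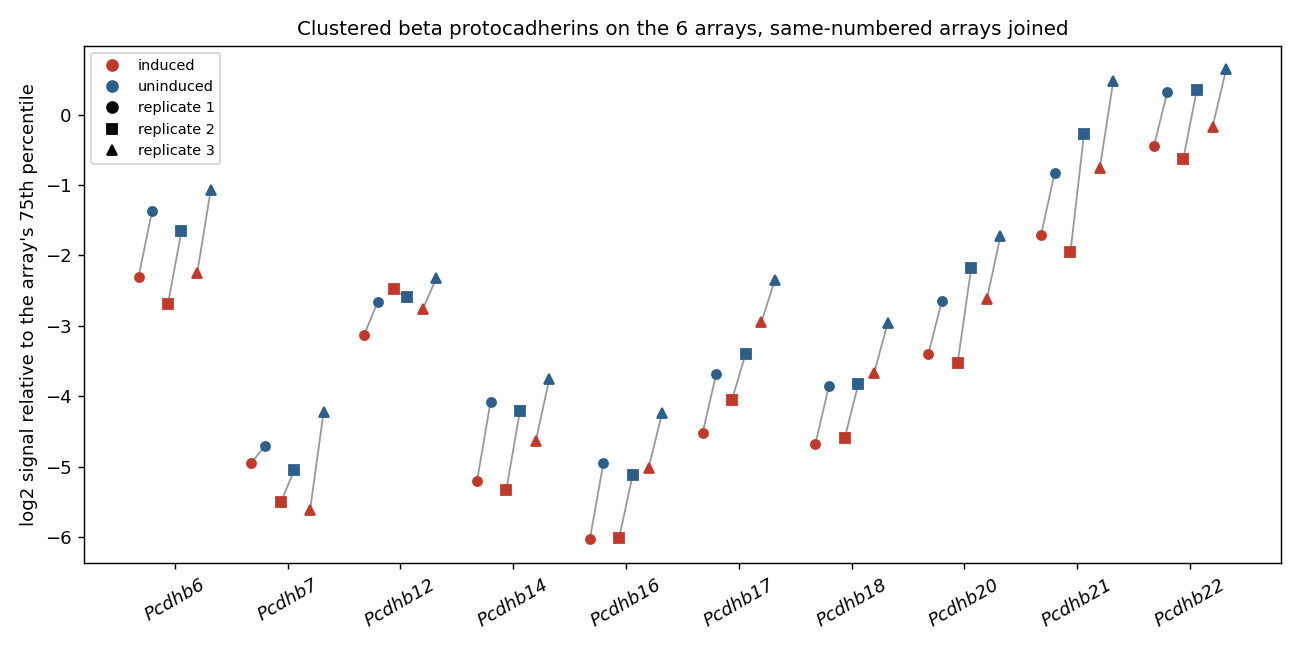
Log2 signal relative to the array's 75th percentile (vertical axis) of the 10 kept beta protocadherins, with induced (red) and uninduced (blue) arrays of the same number joined by a line and the marker giving the number. With this scaling the induced point is the lower one in all 3 pairs for 9 genes (with spike-in scaling no beta gene had a mean change below 0), and for Pcdhb12 replicate 2 runs the other way.

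Alpha and gamma genes gave no call without the block. Of 7 alpha genes on the array 3 were kept, and Pcdha8 (-0.09), Pcdha9 (-0.26) and Pcdhac2 (-0.11) did not pass in either fit. Of 6 gamma genes 4 were kept, and Pcdhga9 had 4.56, 4.20 and 4.79 on the induced arrays, against 4.40, 4.79 and 5.05 on the uninduced arrays. Those ranges overlapped, with a difference of -0.23 (SE 0.23, adjusted p = 0.591 in limma) and -0.44 from a second probe. Pcdhga10 had -4.71, -3.70 and -4.32 on the induced arrays, against -3.59, -2.98 and -3.61 on the uninduced arrays, and its change of -0.85 (SE 0.31) had an adjusted p of 0.176 in limma and of 0.0187 with the block. Pcdhga1 (-0.35) and Pcdhgc5 (-0.41) did not pass in either fit. A probe in the exons that a cluster shares reads all of its transcripts, and the sources used here do not give the place of each probe within its transcript.

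Of 8 genes tested that lie beside or between the clusters on chromosome 18, 0 passed without the block and 7 had positive differences. Positive differences were found for 8569 of all 14518 genes tested. Slc25a2 and Taf7, which lie between the clusters, differed by 0.71 (SE 0.40) and -0.33 (SE 0.23), and Hars, Hars2 and Zmat2 before the alpha cluster by 0.25, 0.03 and 0.20. Slc25a2, at a mean of -5.96 on uninduced arrays, was not well above background on all of them. It was thus kept through the induced group only and could hardly have come out lower. After the gamma cluster, Hdac3 and Rell2 differed by 0.19 and 0.09, and Diaph1, a formin that builds actin filaments, by 0.77 (SE 0.30, adjusted p = 0.203 in limma, 0.0309 with the block). A test of the clusters against their neighbours was not made.

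The technical repeat arrays gave a difference of the same sign as the mean change over the 3 replicates for 27 of 38 members (71.1%), where 77.6% of all genes tested did so. The repeats may re-measure 1 of the same replicates, so a shared sign is no independent check. It held for 9 of 10 beta genes (all but Pcdhb7), 7 of 8 non-clustered protocadherins and 4 of 5 type I cadherins, against 0 of 3 alpha and 1 of 4 gamma genes. Pcdh9, at 0.46 over the replicates, had -1.40 in the repeats.

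Elsewhere in the cadherin superfamily little passed. Of 16 kept genes of 27 listed (desmosomal cadherins, Fat, Celsr and related genes), 1 rose and 0 fell (1 and 1 with the block, where Cdhr5 fell by 0.52, adjusted p = 0.0459 in limma). The gene that rose was Ret, a receptor kinase with cadherin-like repeats, by a fitted 3.28 (SE 0.72, adjusted p = 0.0487 in limma), but on uninduced arrays it was never well above background, and it gave 0.22 with normexp (adjusted p = 0.706 in limma). Fat1, a giant cadherin of many cell contacts, differed by 0.27, and Dsg2 and Dsc2, the desmosomal cadherins kept, by -0.05 and 0.48. Markers of mesenchymal and smooth muscle cells, which use Cdh2 and Cdh11, gave 0 rises and 1 fall (Thy1) among 17 kept genes. Thy1 passed the filter through the uninduced group only and could hardly have come out higher. With normexp it did not pass (-0.79, adjusted p = 0.149 in limma). With the block there were 1 rise (Pdgfra) and 6 falls (Acta2, Col3a1, Dcn, Fn1, Postn and Thy1). This list had a summed level of 1128 to 1204 on induced arrays and 1408 to 1697 on uninduced arrays. Acta2, Fn1, Tagln and Vim made up most of that sum, and none of them passed without the block. The sum therefore says little about the rest of the list.

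Every direction above is relative to the 75th percentile of the array, and spike-in RNA gave another reference. Relative to 4 spike-in probes, the 75th percentile was higher on the induced array than on its uninduced partner by 1.17, 0.80 and 1.91 log2 units in the 3 pairs (1.29 ± 0.56, SD, n = 3), and by 0.14 in the technical repeats. The spike-in probes used themselves varied between arrays, the brightest from 16.75 to 18.14 and the dimmest from 11.55 to 13.88 in log2 signal. A brighter spike-in probe, left out, ran from 18.55 to 18.85, and scaling to it was not tested. The shift of the 75th percentile enters every gene alike, and with spike-in scaling the median over all genes was 1.38, the median of members 0.91 and the median of the beta genes 0.41. Cdh1 and Cdh4 then rose (3.57 and 2.96), Pcdh20 was called lower with only a rough estimate of its size, and Pcdh12 had -1.89, Pcdh17 -0.58 and Pcdh18 -0.22, which did not pass. Of all genes called, 65.7% rose with the 75th percentile as zero, 76.9% with the median as zero and 99.4% with spike-in scaling.

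**Figure D4:**
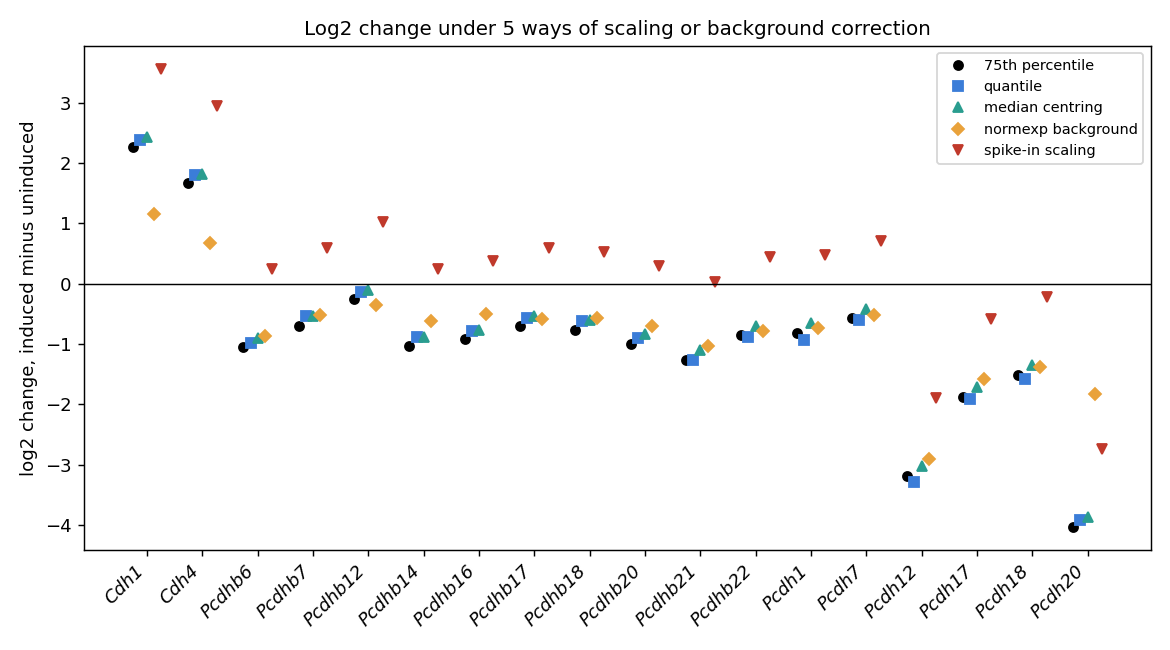
Log2 change (induced minus uninduced, vertical axis) of 18 members under 5 settings, with a marker for each setting. Cdh1 and Cdh4 lie above 0 and Pcdh12, Pcdh17, Pcdh18 and Pcdh20 below 0 in all 5, while the 10 beta genes, Pcdh1 and Pcdh7 lie below 0 in 4 settings and above 0 with spike-in scaling.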

How the data were processed

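Cy3-labelled total RNA was read on 8 Agilent 1-colour arrays, of which 6 were tested. The authors deposited Feature Extraction output, with spot intensity on a linear scale (processed signal and median signal) and flags for background, saturation and outliers. The software is version 10.7.3.1 per the file headers and 10.7.1.1 per the submitters' processing notes, which also name limma. A table of log2 values was deposited too, by the authors. Only 2 of its 8 columns tracked the array they are named for, so it was not used. All arrays share 1 slide and 1 scan time per the file headers, so no slide block was fitted.

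Control and outlier spots (114 to 246 outlier-flagged per array) were left out, each array's 75th percentile was subtracted on the log2 scale, and replicate spots were averaged by probe. RefSeq accessions named 26582 of 55681 probes with 1 symbol, 0 with several and 29099 with none, through a table of GRCm38.p6. A probe was kept if well above background on all 3 arrays of at least 1 group, and the brightest such probe represented its gene. Among genes tested, 21 lacked a value on an array and were fitted without it, none of them a member. The test was limma's (version 3.58.1, under R 4.3.3; lmFit, then eBayes), two-sided. P-values were adjusted by Benjamini and Hochberg over all 14518 genes, and 0.05 was the threshold. The method was tested on simulated data. Precision is limited by 3 arrays per group.

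Groups and replicate numbers came from the sample titles. Deviations of same-numbered arrays from their group means correlated at 0.65, 0.45 and 0.43 over 14497 genes, so the numbers were taken to pair the samples and the block fit is given where it changes a call. The members and gene lists were chosen with earlier results of these data known. Genes named were those past the threshold, those at least 2-fold apart without overlap, the 10 brightest members, the 5 type I cadherins, Pcdh12 and Cdh13, with Cdh5, Ctnnb1, Ctnna1 and Ctnnd1 and listed genes past the threshold. Every other gene with a printed value was chosen after its values were seen. The 2 technical repeats stayed out of every fit but 1 alternative. Alternatives were normexp (offset 50, on the median signal), quantile normalization, median centring, spike-in scaling (4 probes, the brightest left out because it hardly varied), other filters and probe rules, a replicate block and leaving out arrays.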

Additional observations from a re-analysis of the deposited data

How the results depend on the processing

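With the replicate block, 1360 genes rose and 987 fell in place of 601 and 314, and 3 members rose and 15 fell in place of 1 and 3. The block was combined with other choices, added after the data were seen: with median centring it gave 2086 and 875 genes, 4 and 14 members and a member median of -0.22; with quantile normalization 1261 and 940 genes, and 3 and 11 members; and with spike-in scaling 12706 and 109 genes, 20 and 2 members and a median of 0.91. The block without 1 replicate number (also added after the data were seen) gave 586 to 1034 genes that rose and 427 to 932 (477 without replicate 1) that fell, 2 to 3 and 5 to 15 members and medians of -0.51 to -0.39. Without the block, leaving out 1 array gave 257 to 538 genes that rose and 101 to 284 that fell, 0 to 1 members in each direction and medians of -0.54 to -0.36, and the 1 rise was lost without induced replicate 3. The technical repeats entered as a further pair gave 1076 and 508 genes, and 2 and 7 members, but they may count 1 replicate double, so these counts may be too high. Spike-in scaling gave 683 and 4 genes, 2 and 1 members and a median of 0.91. Median centring gave 1 member that fell and a median of -0.22, and quantile normalization also 1 that fell. With no filter on dim probes 356 genes rose and 178 fell, and 0 members fell; 0 members fell also when p-values were adjusted over all kept probes. Requiring signal on all 6 arrays gave a median of -0.27. Normexp gave 1 and 2 members and the mean of kept probes 1 and 4.

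Among the 16 genes named by rule, 26 of their values under alternatives changed sign. Spike-in scaling, with or without the block, gave 1.03 for Cdh15, 1.04 for Cdh2, 1.26 for Cdh3, 0.48 for Pcdh1, 0.72 for Pcdh7, 0.25 for Pcdhb14, 0.44 for Pcdhb22, 0.24 for Pcdhb6 and 1.06 for Pcdhga9. Cdh3 was 0.022 with normexp, 0.12 with median centring with or without the block, 0.15 with the block and without replicate 2, 0.20 without induced replicate 2 and 0.11 without uninduced replicate 3. Cdh2 was 0.15 without uninduced replicate 1 and 0.11 without induced replicate 2. The leave-one-out ranges were -0.23 to 0.20 for Cdh3 and -0.65 to 0.15 for Cdh2. Of the other values, 243 kept their direction and side of the threshold, 46 newly passed and 35 no longer passed. The cause of these changes was not tested. Signals not well above background limit Pcdh20 to a rough estimate. The deposited log2 table and a slide block were planned and not run.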
